A study of Homo sapiens with 6 samples.

Results

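Microtubules are hollow polymers of alpha and beta tubulin dimers, and the human genome holds several genes for each partner. Some isotypes are made in nearly all cells, while others, such as the class III beta tubulin TUBB3, are best known from neurons. Microtubule-associated proteins (MAPs) bind and stabilise the polymer, and stathmins bind free tubulin dimers and favour disassembly. The set described here comprises 10 such genes, taken by symbol from the deposited count tables: the tubulins TUBB3, TUBB2A, TUBB2B and TUBA1A, the MAPs MAP2, MAP1B, MAP4 and MAPT, and the stathmins STMN1 and STMN3. All 10 were found among the 28278 gene rows, and all 10 passed the filter on low counts that left 15131 tested genes. The family was chosen by symbol, but it was proposed with fold changes of this same comparison in view: those of MAP2, TUBB3 and STMN3 were already known. The measured values that it was in part selected on are thus the shTRIM21 against shControl differences of these genes. Fold changes and p-values of the 10 genes are therefore given as a description of the fit and not as independent evidence.

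The libraries came from RKO, an established human cell line from a poorly differentiated colon carcinoma. In the shTRIM21 group (3 libraries) the cells stably carried a short hairpin RNA against TRIM21, an E3 ubiquitin ligase and cytosolic antibody receptor. In the shControl group (3 libraries), whose genotype the labels give as WT, they carried a scrambled hairpin. Both hairpins were introduced with lentivirus, and both groups were selected with puromycin at 5 µg/ml from 36 h after infection. Total RNA was sequenced after removal of ribosomal RNA. The titles call the libraries biological replicates. The labels name no separate infections, clones or hairpin sequences, so p-values measure the spread between these libraries, which may be technical. The labels also call the source mouse tissue, but the organism and the gene symbols are human.

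Libraries held from 33499827 to 44466137 counts. Ribosomal RNA rows took 17.0 to 23.5% of the counts in the shTRIM21 libraries and 14.7 to 36.9% in the shControl libraries, and leaving those rows out kept 9 of the 10 genes called. TRIM21 fell to 7.58 ± 0.574 CPM in shTRIM21, against 11.0 ± 1.40 CPM in shControl (CPM, counts brought to a common library size with TMM factors, SD, n = 3 each; log2 fold change -0.54, edgeR adjusted p = 0.00424, SE 0.12). That call was missed with library sizes alone (-0.34, edgeR adjusted p = 0.197). Of all tested genes, 3146 (20.8%) were called, meaning an adjusted p under 0.05 in edgeR's quasi-likelihood test, and the groups did not overlap for 5701 (37.7%). Epithelial markers were abundant: EPCAM, KRT8, KRT18, KRT19, CDH1, ESRP1 and CLDN7 summed to between 4866 and 5120 CPM in shTRIM21 and between 6176 and 6833 CPM in shControl. Of these 7 markers, 2 rose and 3 fell. Of the intestinal markers CDX2, VIL1, LGALS4, CDH17 and GPA33, 2 of 5 could be tested, 0 were called and LGALS4 was listed at 0. In bulk RNA, fewer cells expressing a gene and less RNA per cell cannot be told apart.

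The paralogs TUBB2A and TUBB2B lie close together on the minus strand of chromosome 6, at 3153666 to 3157544 and 3224277 to 3227653 (GRCh38.p14, RefSeq). Both fell by nearly the same amount, so the bases before their starts are shown, with the TATA box letters TATAAA and the GC box letters GGGCGG (searched on both strands) in capitals. The stretches are chr6:3157545-3157694 and chr6:3227654-3227803, read on the minus strand.
TUBB2A: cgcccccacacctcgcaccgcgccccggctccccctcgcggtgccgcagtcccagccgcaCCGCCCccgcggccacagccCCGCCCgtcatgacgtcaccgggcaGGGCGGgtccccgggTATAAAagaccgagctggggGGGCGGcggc
TUBB2B: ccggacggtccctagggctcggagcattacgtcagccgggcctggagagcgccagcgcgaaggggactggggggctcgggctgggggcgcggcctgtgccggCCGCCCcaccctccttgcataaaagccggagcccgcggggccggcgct
Over the 300 bases of the RefSeq window, TUBB2A held 1 TATA box, at -30 from its start, and 5 GC boxes. TUBB2B held 0 exact matches to TATAAA and 1 GC box. The search took exact letters only, and the TUBB2B stretch reads cataaa, a near match, close to its start. Of 35116 human promoter windows of that length, 11.5% held TATAAA and 45.0% held GGGCGG on either strand, and none of the matches shown overlap one another. Aligned end to end, the 150 bases of each gene matched at 51.5% of the columns. Their coding sequences matched at 98.1% of 1338 columns.

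Tubulin messages are also known for a form of autoregulation in which the ribosome-associated protein TTC5 recognises the first residues of nascent tubulin and the mRNA is then degraded when free tubulin is plentiful. The start of the coding sequence that encodes those residues is shown for the 4 tubulins of the set, with the first 4 codons in capitals (GENCODE release 29).
TUBB3: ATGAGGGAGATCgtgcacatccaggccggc
TUBB2A: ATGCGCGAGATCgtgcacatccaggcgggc
TUBB2B: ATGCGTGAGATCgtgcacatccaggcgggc
TUBA1A: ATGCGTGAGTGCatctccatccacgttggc
All 9 beta tubulin genes examined encode the same 4 residues there, although no other beta gene spells the first 12 bases as TUBB2A does. Of 9 alpha tubulin genes, 8 encode the residues of TUBA1A. The exception was TUBA1C, where the longest coding sequence was read, of 1560 bases against 1356 for TUBA1A. Shorter TUBA1C coding sequences were not examined, so whether the gene also encodes these residues was not tested.

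Within the set, 9 of 10 genes were called, 4 higher and 5 lower in shTRIM21, beside 20.8% of all tested genes. The median log2 fold change of the 10 was -0.023, beside 0.0054 over all tested genes, so the set moved in both directions around no net shift. The groups did not overlap for any of the 10, beside 37.7% of all tested genes. Because the set was proposed with these results known, these counts describe it and carry no further weight. The size of the changes was small for all but MAP2: the other 9 genes differed by 1.11-fold to 1.32-fold.

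**Figure D1:**
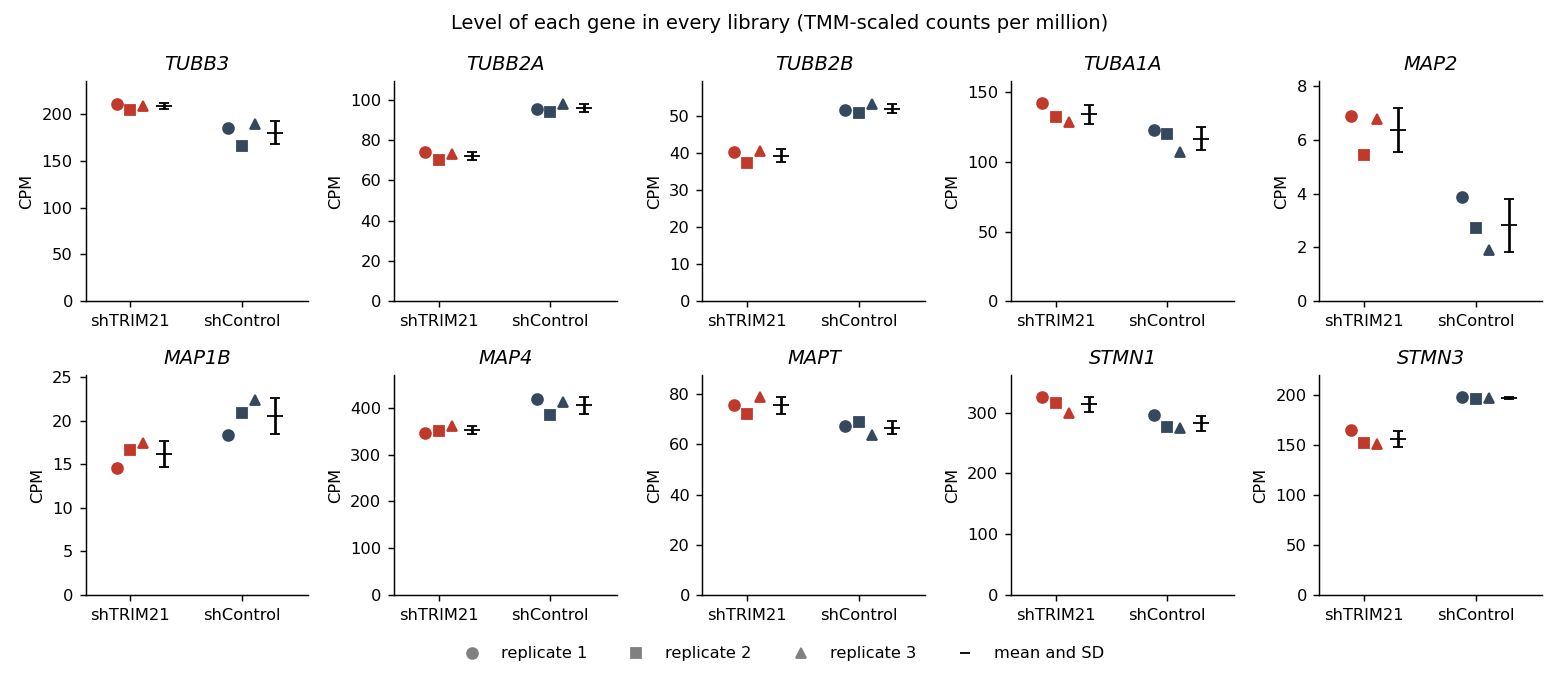
Level of each of the 10 genes in every library, in TMM-scaled CPM on axes that start at 0, with shTRIM21 in red at the left and shControl in dark blue at the right; black marks give the mean and SD of 3 libraries. The groups are apart for every gene, most widely for MAP2 (6.37 CPM in shTRIM21 and 2.83 CPM in shControl on average), and the shControl libraries of STMN3 lie almost on 1 line.

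Among the tubulins of the set, TUBB3 and TUBA1A rose and TUBB2A and TUBB2B fell. TUBB3, on chromosome 16 at 89921925 to 89936097, had 211, 205 and 209 CPM in the shTRIM21 libraries, against 185, 166 and 189 CPM in the shControl libraries. Every shTRIM21 library was above every shControl library, and shControl replicate 2 was the lowest of the 6. The TUBB3 log2 fold change was 0.21 (edgeR adjusted p = 0.0164, SE 0.056, 95% interval 0.089 to 0.33). The call was lost without shTRIM21 replicate 2 (0.21, edgeR adjusted p = 0.0675) and without shControl replicate 2 (0.15, edgeR adjusted p = 0.0592). Of the 50-base words in its longest GENCODE transcript, 79.6% also occur in another GENCODE gene model, so its reads may not all have been assigned to it.

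TUBA1A, an alpha tubulin of developing neurons on chromosome 12 at 49184795 to 49189080, had 142, 132 and 129 CPM in shTRIM21, against 123, 120 and 107 CPM in shControl. The groups were apart by a small margin, with shControl replicate 3 lowest. The TUBA1A log2 fold change was 0.20 (edgeR adjusted p = 0.0306, SE 0.062, 95% interval 0.071 to 0.33). The call was lost without shTRIM21 replicate 1 (0.16, edgeR adjusted p = 0.117), shTRIM21 replicate 2 (0.21, edgeR adjusted p = 0.0965) or shControl replicate 3 (0.14, edgeR adjusted p = 0.171). TUBA1A shares 41.1% of its 50-base words with other genes, mostly with TUBA1B, whose coding sequence matches it at 97.3% of the aligned columns.

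TUBB2A and TUBB2B, both class II beta tubulins known from brain, fell alike. TUBB2A had 74.0, 70.1 and 72.9 CPM in shTRIM21, against 95.3, 94.1 and 98.0 CPM in shControl, a log2 fold change of -0.41 (edgeR adjusted p = 9.12e-05, SE 0.053, 95% interval -0.52 to -0.29). TUBB2B had 40.1, 37.2 and 40.6 CPM in shTRIM21, against 51.6, 50.8 and 53.2 CPM in shControl, a log2 fold change of -0.40 (edgeR adjusted p = 0.000353, SE 0.061, 95% interval -0.53 to -0.27). In both genes the libraries of a group lay close together and far from those of the other group.

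The TUBB2A and TUBB2B values may not be independent of each other. Dividing TUBB2A by TUBB2B within each library gave 1.85, 1.89 and 1.80 in shTRIM21 and 1.85, 1.85 and 1.84 in shControl, so the ratio was nearly fixed. TUBB2A shares 60.4% of its 50-base words with TUBB2B, and TUBB2B shares 47.3% with TUBB2A. How the authors' counting divided reads between the copies is not given in the sources used here, so the fall is given for the pair, and whether each gene fell on its own was not tested. By contrast, the ratio of TUBB3 to TUBB2A in the same libraries, which no scaling between libraries can alter, was 2.85, 2.92 and 2.87 in shTRIM21 and 1.95, 1.76 and 1.93 in shControl.

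The set was placed beside the other tubulin isotypes, which were listed by name and not by how they moved. Of 14 other alpha and beta tubulin genes, 10 passed the filter, 2 rose, 3 fell and 5 were not called. TUBB4A, a beta tubulin known from brain, rose most, to 59.9, 61.3 and 56.4 CPM in shTRIM21, against 42.5, 34.4 and 41.6 CPM in shControl (log2 fold change 0.58, edgeR adjusted p = 9.39e-05, SE 0.077), and was called in all 15 alternatives. TUBA4A, at 55.4 ± 2.55 CPM in shTRIM21 and 48.8 ± 1.22 CPM in shControl (SD, n = 3 each), was 1.13-fold higher (edgeR adjusted p = 0.0437). TUBA4A kept its call in 5 of 15 alternatives, and leaving out any library but shTRIM21 replicate 3 ended it, at log2 fold changes of 0.14 to 0.19.

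Among the widely expressed isotypes, TUBA1C, TUBA1B and TUBB6 were called lower, at log2 fold changes of -0.27, -0.21 and -0.18. TUBA1C was 1.20-fold lower, at 1162 ± 20.5 CPM in shTRIM21 and 1398 ± 50.3 CPM in shControl (SD, n = 3 each; edgeR adjusted p = 0.00452). TUBA1B, at 2182 ± 81.0 CPM in shTRIM21 and 2528 ± 57.8 CPM in shControl (SD, n = 3 each), and TUBB6, at 165 ± 4.41 CPM in shTRIM21 and 187 ± 12.7 CPM in shControl (SD, n = 3 each), were called lower at edgeR adjusted p-values of 0.0453 and 0.0415. TUBA1B lost its call without any single library except shControl replicate 2, at -0.19 to -0.24, and TUBB6 missed the test without shTRIM21 replicate 2 or 3 or shControl replicate 2 or 3, at -0.14 to -0.17. TUBB and TUBB4B, with log2 fold changes of -0.14 (95% interval -0.31 to 0.023) and -0.085 (95% interval -0.20 to 0.031), did not pass the test. TUBA8, at 0.987 CPM in shTRIM21 and 0.981 CPM in shControl on average, did not pass either. TUBA1C, TUBA1B and TUBB6 were not called with library sizes alone, and TUBB6 then stood at 0.037.

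**Figure D2:**
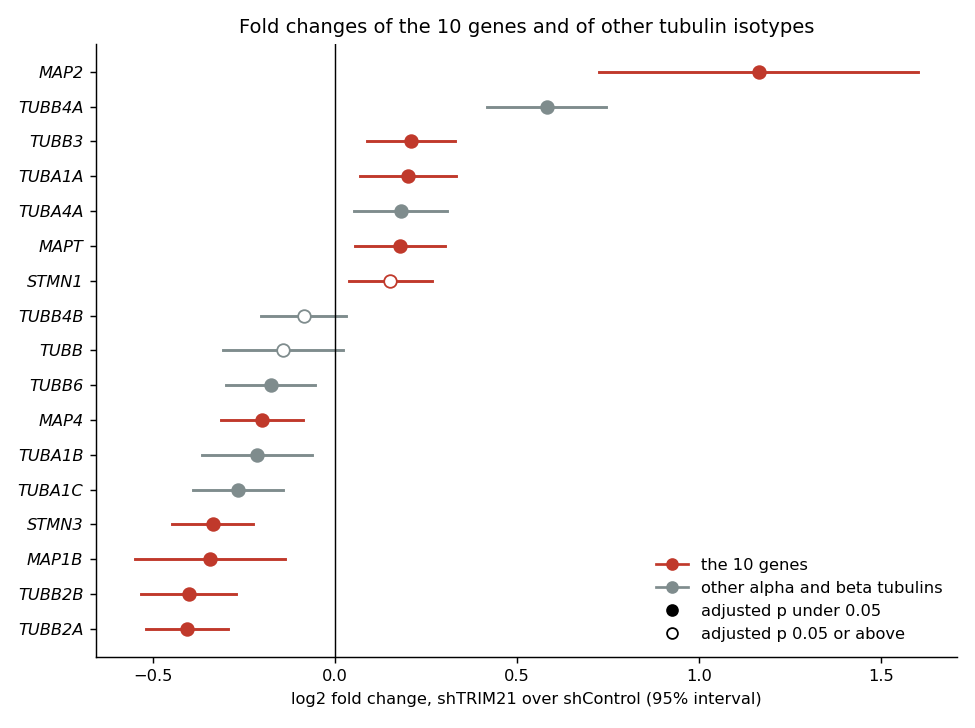
Log2 fold change, shTRIM21 over shControl, with its 95% interval for the 10 genes (red) and for other alpha and beta tubulin isotypes with a mean of at least 1 CPM (grey); filled points had an adjusted p under 0.05. MAP2 at 1.17 and TUBB4A at 0.58 stand highest, and TUBB2A and TUBB2B, at -0.41 and -0.40, stand lowest.

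Summed over isotypes, alpha tubulin reads came to 3645, 3537 and 3425 CPM in shTRIM21, against 3993, 4201 and 4084 CPM in shControl. The 6 tested alpha genes together thus decreased by 13.6% in shTRIM21. The 8 tested beta genes summed to 4263, 4159 and 4170 CPM in shTRIM21, against 4446, 4738 and 4473 CPM in shControl, and decreased by 7.79%. These sums were not tested, and they rest on the TMM scaling. With library sizes alone, the log2 fold changes of the abundant alpha genes TUBA1B and TUBA1C were -0.0041 and -0.060.

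Composition within each family does not depend on scaling between libraries. Taking reads per kilobase of the longest transcript, TUBB3 made up 6.06 ± 0.072% of beta tubulin in shTRIM21 and 4.85 ± 0.456% in shControl (SD, n = 3 each). TUBB4A made up 1.33 ± 0.0562% in shTRIM21 and 0.826 ± 0.114% in shControl (SD, n = 3 each). TUBB2A made up 2.61 ± 0.0536% in shTRIM21 and 3.20 ± 0.140% in shControl, and TUBB2B 1.12 ± 0.0495% in shTRIM21 and 1.37 ± 0.0633% in shControl (SD, n = 3 each). For these 4 beta isotypes the groups did not overlap.

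The same held in the alpha family for TUBA1A, at 3.93, 3.78 and 3.82% in shTRIM21 and 3.12, 2.91 and 2.66% in shControl, and for TUBA4A, at 1.22 ± 0.0162% in shTRIM21 and 0.931 ± 0.0422% in shControl (SD, n = 3 each). The abundant genes overlapped between groups: TUBB made up 57.0 ± 0.570% of beta tubulin in shTRIM21 and 58.1 ± 1.66% in shControl, and TUBA1B 73.6 ± 0.314% of alpha tubulin in shTRIM21 and 74.0 ± 0.350% in shControl (SD, n = 3 each). TUBA1C, the next alpha gene, made up 21.3 ± 0.354% in shTRIM21 and 22.2 ± 0.289% in shControl (SD, n = 3 each), where the groups lay narrowly apart. By these counts TUBB3, TUBB4A, TUBB2A, TUBB2B and TUBA1A were thus each a small share of their own family in both groups. The shares also depend on how reads that match several isotypes were assigned, which the sources used here do not give.

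**Figure D3:**
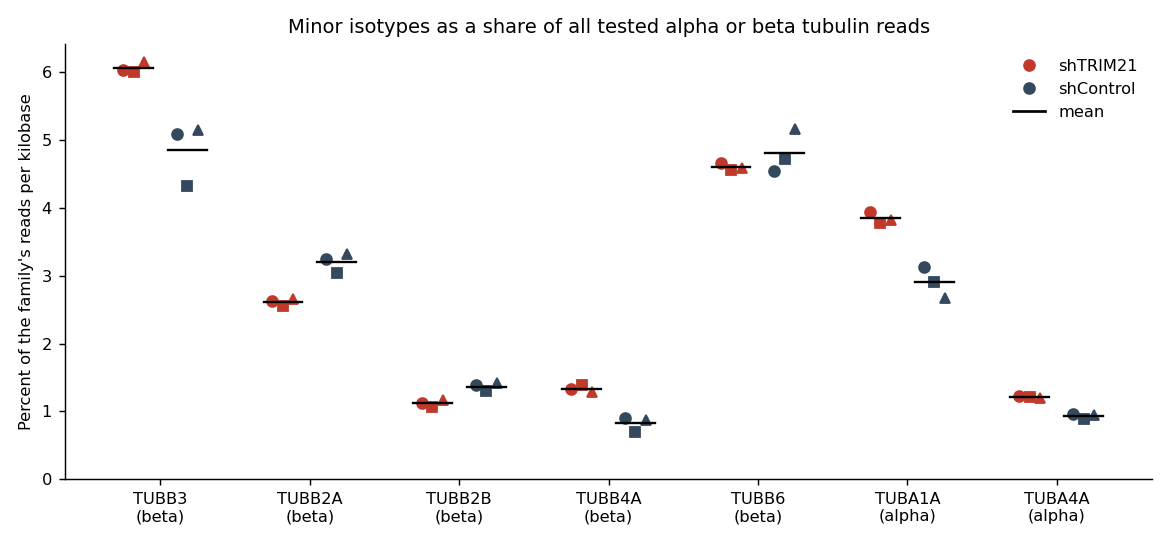
Minor isotypes as a percentage of the reads per kilobase of all tested beta or alpha tubulin genes, by library, with shTRIM21 (red) left of shControl (dark blue), marker shapes for replicates and a line at each mean. TUBB3, TUBB4A, TUBA1A and TUBA4A lie higher and TUBB2A and TUBB2B lower in shTRIM21, and TUBB6 overlaps.

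Among the MAPs of the set, MAP2 and MAPT rose and MAP1B and MAP4 fell. MAP2, known from dendrites, lies on chromosome 2 at 209424047 to 209734112 and had the largest change of the 10 genes. Its counts were 258, 213 and 257 in shTRIM21, against 146, 100 and 69 in shControl, or 6.88, 5.44 and 6.79 CPM in shTRIM21, against 3.87, 2.72 and 1.90 CPM in shControl. All shTRIM21 libraries were above all shControl libraries, and the shControl libraries spread widely around their mean. MAP2 was 2.24-fold higher (95% interval 1.66-fold to 3.04-fold; log2 fold change 1.17, edgeR adjusted p = 0.00108, SE 0.21) and was called in all 15 alternatives, with log2 fold changes from 0.94 to 1.46. Per length it was the least abundant of the 10 in both groups, at 0.656 ± 0.0831 CPM per kb in shTRIM21 and 0.292 ± 0.102 CPM per kb in shControl (SD, n = 3 each).

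MAPT encodes tau, the MAP of axons, on chromosome 17 at 45894554 to 46028334. It had 75.6, 72.1 and 78.9 CPM in shTRIM21, against 67.2, 69.0 and 63.8 CPM in shControl, and the groups were apart by a small margin. The MAPT log2 fold change was 0.18 (edgeR adjusted p = 0.041, SE 0.058, 95% interval 0.055 to 0.30). This call was lost in 9 of 15 alternatives, among them the omission of any single library except shControl replicate 2, at log2 fold changes of 0.14 to 0.20. MAPT overlaps the antisense gene MAPT-AS1 on the annotation, and without a stated use of strand their reads cannot be told apart.

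MAP4, the relative of MAP2 and tau that most cell types make, lies on chromosome 3 at 47850695 to 48088848. It had 345, 351 and 362 CPM in shTRIM21, against 418, 383 and 413 CPM in shControl, so every shTRIM21 library was lower. The MAP4 log2 fold change was -0.20 (edgeR adjusted p = 0.0153, SE 0.053, 95% interval -0.31 to -0.086), and 0.019, not called, with library sizes alone. The test was also missed without shTRIM21 replicate 2 (-0.20, edgeR adjusted p = 0.0748), shControl replicate 1 (-0.18, edgeR adjusted p = 0.055) or shControl replicate 3 (-0.19, edgeR adjusted p = 0.0578). The ratio of MAP2 to MAP4 reads within a library was 0.0199, 0.0155 and 0.0188 in shTRIM21, against 0.00925, 0.0071 and 0.00462 in shControl.

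MAP1B, a MAP of early axon growth from a separate family, lies on chromosome 5 at 72107475 to 72209565. It had 14.5, 16.6 and 17.4 CPM in shTRIM21, against 18.3, 20.9 and 22.3 CPM in shControl, so the highest shTRIM21 library was just under the lowest shControl library. The MAP1B log2 fold change was -0.34 (edgeR adjusted p = 0.0206, SE 0.096, 95% interval -0.55 to -0.14). The call was lost without shTRIM21 replicate 1 (-0.27, edgeR adjusted p = 0.079), shTRIM21 replicate 2 (-0.37, edgeR adjusted p = 0.0528) or shControl replicate 3 (-0.28, edgeR adjusted p = 0.086). Per length MAP1B was the second least abundant of the 10, at 1.34 ± 0.123 CPM per kb in shTRIM21 and 1.70 ± 0.169 CPM per kb in shControl (SD, n = 3 each).

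Of the stathmins of the set, STMN3 fell and STMN1 did not pass the test. STMN3, a membrane-bound stathmin known from neurons, lies on chromosome 20 at 63639712 to 63653424. It had 165, 152 and 152 CPM in shTRIM21, against 198, 196 and 197 CPM in shControl, with the shControl libraries almost equal. STMN3 was 1.26-fold lower (log2 fold change -0.33, edgeR adjusted p = 0.000414, SE 0.052, 95% interval -0.45 to -0.22). STMN1, the stathmin of dividing cells, on chromosome 1 at 25884179 to 25906880, had 325, 316 and 299.8 CPM in shTRIM21, against 296, 276 and 274 CPM in shControl. Its log2 fold change was 0.15 (edgeR adjusted p = 0.0549, SE 0.053, 95% interval 0.039 to 0.27), just above the threshold of 0.05, and it was called in 5 of 15 alternatives, among them DESeq2 (DESeq2 adjusted p = 0.0338), without shTRIM21 replicate 3 (0.18, edgeR adjusted p = 0.0354) and without shControl replicate 1 (0.19, edgeR adjusted p = 0.0401). The ratio of STMN1 to STMN3 within a library was 2.01 ± 0.0653 in shTRIM21 and 1.43 ± 0.0568 in shControl (SD, n = 3 each). The neuronal stathmins STMN2 and STMN4 were listed at 0 and at 2 counts in all libraries together.

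Per length of the longest transcript, STMN1 was the most abundant of the 10 genes, at 183 ± 7.39 CPM per kb in shTRIM21 and 165 ± 7.11 CPM per kb in shControl, followed by TUBB3 at 105 ± 1.67 CPM per kb in shTRIM21 and 91.0 ± 6.22 CPM per kb in shControl (SD, n = 3 each). TUBA1A and STMN3 came next and changed places: TUBA1A had 70.0 ± 3.55 CPM per kb in shTRIM21 and 60.9 ± 4.35 CPM per kb in shControl, and STMN3 66.5 ± 3.35 CPM per kb in shTRIM21 and 83.8 ± 0.331 CPM per kb in shControl (SD, n = 3 each). In shTRIM21 these neighbours did not differ beyond their spread, nor did TUBA1A and TUBB2A in shControl, where TUBB2A had 60.1 ± 1.25 CPM per kb (SD, n = 3). Transcript lengths are those of GENCODE release 29, and the transcripts in use in RKO cells may be shorter.

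The sign of MAP4 and the calls of most of the set depended on how the libraries were scaled. Library sizes alone moved the median log2 fold change of all tested genes to 0.22, and relative to that shift the 10 genes kept their order. There MAP2 alone was called, at 1.38, and TUBB2A, TUBB2B, MAP1B and STMN3 were at -0.19, -0.18, -0.13 and -0.12 without a call, while MAP4 turned to 0.019. TUBB3, TUBA1A and MAPT, at 0.43, 0.41 and 0.39, were not called there either. Leaving out shControl replicates 1 and 3 left 1 shControl library, which is then assumed to vary like the shTRIM21 libraries, and a smaller comparison makes fewer calls. In that fit MAP1B, MAP4, MAPT, TUBA1A and STMN1 were not called, the first 4 at -0.38, -0.13, 0.12 and 0.15, and TUBB3 stood at 0.32. Of all calls, 47.0% were higher in shTRIM21 with TMM factors, 62.1% with upper-quartile factors and 93.0% with library sizes alone.

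**Figure D4:**
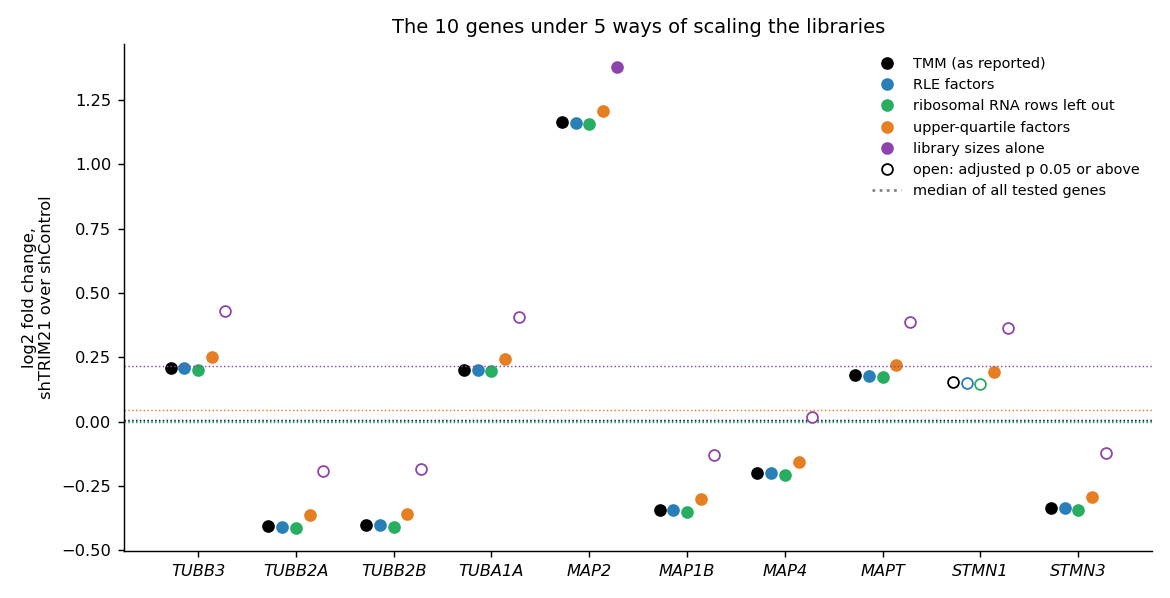
Log2 fold change, shTRIM21 over shControl, of the 10 genes under 5 ways of scaling the libraries; open points had an adjusted p of 0.05 or above, and dotted lines give the median of all tested genes under the scaling of the same colour. TMM, RLE and the omission of ribosomal RNA rows nearly coincide, and library sizes alone (purple) lift every gene together with the median, to 0.22.

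Other genes of the microtubule system and a list of other genes known from neurons, drawn up by function with earlier results of these data known, were read from the same fit. Over all these lists, neuronal genes included, 99 of 126 genes were tested, 14 rose and 12 fell, beside 9.77% of all tested genes that rose and 11.0% that fell, and the median log2 fold change was -0.00057. With upper-quartile factors 16 rose and 7 fell, and with library sizes alone 13 rose and 1 fell. Without shTRIM21 replicate 2 the counts were 8 and 6, and 9 rose without shTRIM21 replicate 1, shControl replicate 2 or shControl replicate 3. Without shControl replicates 1 and 3, which had the largest share of ribosomal RNA, 8 rose and 7 fell, with 1 shControl library left.

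Among 23 tested MAPs outside the set, 2 rose, 6 fell and 15 were not called. DCLK1, a doublecortin-like kinase that binds microtubules, fell most, to 0.349 ± 0.0213 CPM in shTRIM21, against 3.15 ± 0.592 CPM in shControl (SD, n = 3 each), 8.94-fold lower (log2 fold change -3.16, edgeR adjusted p = 1.73e-06, SE 0.28). DCLK1 had 14, 13 and 13 counts in shTRIM21, against 96, 117 and 135 counts in shControl, and was called in all 15 alternatives. MAP1A, the adult relative of MAP1B, rose to 12.8, 13.5 and 14.1 CPM in shTRIM21, against 8.85, 8.24 and 8.50 CPM in shControl (log2 fold change 0.66, edgeR adjusted p = 0.000191, SE 0.094). MAP1A thus changed in the direction opposite to MAP1B. MAPRE2, an end-binding protein of growing microtubule tips, rose 1.40-fold (edgeR adjusted p = 0.000158). EML2 and the microtubule polymerase gene CKAP5 were 1.25-fold and 1.20-fold lower (edgeR adjusted p = 0.00269 and 0.0034). The doublecortin gene DCX, a marker of young neurons, had 2 counts in all libraries together.

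Of 18 tested tubulin-modifying enzymes, 5 rose, 0 fell and 13 were not called, beside 9.77% of all tested genes that rose and 11.0% that fell. AGTPBP1 and TTLL6 were called higher only just under the threshold (edgeR adjusted p = 0.0453 and 0.0460), and TTLL6 had 8 to 31 counts a library. VASH1, a vasohibin that removes the last tyrosine of alpha tubulin, had 25.6, 30.8 and 32.3 CPM in shTRIM21, against 22.7, 18.9 and 19.2 CPM in shControl (log2 fold change 0.55, edgeR adjusted p = 0.00117, SE 0.097), and was called in all 15 alternatives. Its paralog VASH2 rose 1.41-fold (edgeR adjusted p = 0.0203) but was not called without shTRIM21 replicate 1 or 3 or shControl replicate 3, at log2 fold changes of 0.43 to 0.44. The deacetylase gene HDAC6 was 1.19-fold higher (edgeR adjusted p = 0.0301), and missed the test without shTRIM21 replicate 2 or 3 or shControl replicate 2 or 3, at 0.20 to 0.26. SVBP, the partner protein of the vasohibins, did not pass the test at -0.080 (95% interval -0.41 to 0.25).

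The conventional kinesin heavy chains split by isoform. KIF5A, known from neurons, had 9.27, 7.43 and 8.75 CPM in shTRIM21, against 4.87, 5.28 and 5.41 CPM in shControl (log2 fold change 0.71, edgeR adjusted p = 0.00104, SE 0.12), and was called in all 15 alternatives. KIF5C, also known from neurons, rose 1.57-fold (edgeR adjusted p = 0.00394), and was not called against shControl replicate 2 alone (log2 fold change 0.49). The widely expressed KIF5B was 1.12-fold lower, at 193 ± 5.64 CPM in shTRIM21 and 216 ± 8.32 CPM in shControl (SD, n = 3 each; edgeR adjusted p = 0.038). KIF5B was at 0.044 with library sizes alone, and it missed the test without shTRIM21 replicate 1 or 2 or shControl replicate 1 or 2, at -0.13 to -0.18. Of 12 tested motor genes, 2 rose and 1 fell.

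The remaining microtubule lists are too short to set their calls apart from the 20.8% of all tested genes that were called. With library sizes alone TUBE1, KATNAL1, EML2 and CKAP5 (-0.41, -0.13, -0.11 and -0.059) were not called. The epsilon tubulin gene TUBE1, of centrioles, was 1.53-fold lower (edgeR adjusted p = 0.000955), and 1 of 4 gamma, delta and epsilon tubulin genes was called. Among 7 folding cofactors TBCEL alone was called, 1.23-fold higher (edgeR adjusted p = 0.0165), though not without shTRIM21 replicate 2 (0.29) or shControl replicate 2 (0.26). Of 6 tested severing enzymes KATNAL1 was 1.26-fold lower (edgeR adjusted p = 0.0121). Of 8 kinases that phosphorylate MAPs, 0 were called. In the autoregulation list TTC5 had a log2 fold change of -0.18 (95% interval -0.36 to 0.0075) and did not pass the test, and CNOT11, a subunit of the CCR4-NOT deadenylase, was 1.13-fold higher (edgeR adjusted p = 0.0383). The CNOT11 call was lost in 9 of 15 alternatives, among them the omission of any single library but shTRIM21 replicate 3, at 0.15 to 0.18.

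Other genes known from neurons ranged from 0 to well expressed in these cells. Of the 20 genes on this list, which included the repressor gene REST, 8 could be tested and 1 was called. The called gene was the neuronal enolase gene ENO2, at 46.8 ± 0.706 CPM in shTRIM21 and 23.0 ± 1.02 CPM in shControl (SD, n = 3 each; log2 fold change 1.02, edgeR adjusted p = 8.40e-08, SE 0.065). NEFM, ELAVL2 and ELAVL4 were listed at 0, and NEFL, GAP43, UCHL1 and CHGA had 2 counts or fewer in all libraries together. SYT1, a synaptic vesicle protein, had 55.7 ± 4.58 CPM in shTRIM21 and 54.7 ± 3.21 CPM in shControl (SD, n = 3 each), and was not called. The adhesion molecule gene L1CAM had 15.8, 17.9 and 18.9 CPM in shTRIM21, against 20.5, 14.9 and 19.7 CPM in shControl, and was not called either. With REST included, the list summed to 165 to 177 CPM in shTRIM21 and 138 to 151 CPM in shControl, a difference that lay mostly in ENO2. REST alone had 49.0 ± 2.72 CPM in shTRIM21 and 47.8 ± 1.05 CPM in shControl (SD, n = 3 each). GFAP, a marker of astrocytes, was higher at a low level, with 1.06 ± 0.188 CPM in shTRIM21 and 0.424 ± 0.0378 CPM in shControl (SD, n = 3 each; edgeR adjusted p = 0.0117), and its part in the results was not tested. REST, the repressor of neuronal genes in other cell types, had a log2 fold change of 0.035 (95% interval -0.096 to 0.17) and did not pass the test.

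The tested genes whose profile over the 6 libraries was most like that of MAP2 were RIOX1, KRT23, MAN1A1, ABCC2 and GNAZ. Likeness was the root mean square distance between log2 CPM values centred on each gene's mean, among genes with at least 5 CPM, and ran from 0.20 for RIOX1 to 0.25 for GNAZ. All 5 were higher in shTRIM21, from 2.14-fold for GNAZ to 2.44-fold for MAN1A1, so the likeness rests largely on the difference between groups.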

How the data were processed

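For each library the authors deposited a table of unnormalized read counts with 28278 gene symbols. The submitters' processing notes list TopHat2, edgeR 3.38.1, limma 3.52.2 and hg38, giving none of them a role. For the counting program, the annotation and the use of strand, the sources used here give nothing. Groups and replicate numbers came from the titles. Counts were analysed with R 4.3.3 and edgeR 4.0.16: low genes were removed by filterByExpr (minimum count 10, minimum total 15), libraries were scaled with TMM factors, and groups were compared by the quasi-likelihood F test on all 6 libraries without covariates. P-values were adjusted over all tested genes by the Benjamini-Hochberg method, with 0.05 as threshold. Standard errors were derived from F, as the size of the log2 fold change over the root of F. CPM values are TMM-scaled. DESeq2 1.42.0 was an alternative. The fit was tested on simulated data. Positions and promoter windows came from RefSeq (GRCh38.p14), where all 10 symbols matched and 9 had a promoter window; transcripts and coding sequences came from GENCODE release 29.

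The members, gene lists and tests were chosen with earlier results of these data known. Named genes outside the set are, per list and direction, up to 3 called genes with the smallest p-values whose mean reached 1 CPM in the higher of the groups; tubulin isotypes at that level were also named. TUBA8, TTC5, SVBP, AGTPBP1, TTLL6, REST, SYT1, L1CAM, GFAP and genes listed at or near 0 were named after their values were seen. The ratios between genes and the isotype shares were also added then. Raw counts of any 2 replicates of a group differed by more than sampling noise, at a chi-square per degree of freedom of 15.2 to 341. Ribosomal RNA rows were included there and their share differed between libraries. Whether the other RNA varied beyond sampling noise was not tested. The epithelial and intestinal marker lists are given with the results, and a further marker list is not reported here. Of 5 mesenchymal markers 4 could be tested, and 1 was called higher and 2 lower. Of 5 fibroblast and 5 immune markers only 1 each could be tested, COL1A1 and CD68, and neither was called. Summed levels of these lists in shTRIM21 and shControl were 13.4 to 16.1 and 16.9 to 18.2 CPM (mesenchymal), 10.1 to 10.6 and 6.04 to 9.08 CPM (fibroblast, DCN and LUM at 0), and 5.79 to 6.69 and 7.09 to 8.21 CPM (immune, CD3E at 0).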

Additional observations from a re-analysis of the deposited data

How the results depend on the processing

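Alternatives were RLE and upper-quartile factors, library sizes alone, no filter on low counts, ribosomal RNA rows left out, DESeq2, robust empirical Bayes, a replicate block and each library left out; leaving out shControl replicates 1 and 3 together, which leaves 1 shControl library assumed to vary like the others, was added after seeing the data. The count of called genes, 3146, became 1958 without shControl replicates 1 and 3, was 1969 when only library sizes were used, and ranged from 1844 to 2592 with 1 library left out. The 9 called genes of the set became 1 with library sizes alone, 5 without shControl replicates 1 and 3, and 4 to 9 with 1 library left out. Without shTRIM21 replicate 2 the count was 4, and without shControl replicate 3 it was 5. Of the listed microtubule and neuronal genes outside the set, the 14 that rose became 8 without shControl replicates 1 and 3 and 8 to 12 with 1 library left out. The 12 that fell became 7 with upper-quartile factors, 1 with library sizes alone, 7 without shControl replicates 1 and 3, and 6 to 10 with 1 library left out. Signs turned with library sizes alone for MAP4 (0.019), TUBB6 (0.037) and KIF5B (0.044), where the median of all tested genes was 0.22.

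Same-numbered libraries did not visibly deviate together, at correlations of -0.013, 0.0057 and -0.080. Libraries of different number had correlations of -0.039 to 0.050. With 3 libraries a group, these values cannot exclude a pairing by number. With the replicate block 2905 genes were called, 8 of the 10 genes of the set, and 11 higher and 8 lower of the listed genes outside it. MAP2 was called in all 15 alternatives and TUBB2A, TUBB2B and STMN3 in all but library sizes alone. MAPT, at an adjusted p of 0.0147 to 0.351 over its alternatives, and STMN1, at 0.0176 to 0.211, lay nearest the threshold. Depth limits MAP2 most among the 10, with 69 to 258 counts a library. Effects of the knockdown and of the particular hairpins cannot be told apart.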
